A study of Mus musculus with 47 samples.

Results

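The comparison described here sets wild-type mice given 4b against wild-type mice given a control treatment, in the striatum, and asks which genes the compound moved in a brain without the Huntington's disease transgene. Its members are the 8 arrays whose titles name wild-type striatum, 4 from 4b-treated mice and 4 from control mice, of 47 arrays in the series. Every array measured total RNA of 1 sample on a mouse Illumina bead array, which reads each gene through probes whose brightness is the intensity. The mice were CBA x C57BL/6. The treated mice drank 4b, an inhibitor of histone deacetylases, at 1 mg/ml in place of water for 67 days from 4 months of age, and the labels do not say what the control animals drank. The treated group held 2 females and 2 males, and so did the control group. The other 39 arrays cover wild-type cortex and cerebellum and the 3 regions of R6/2(300Q) mice, which express part of the human huntingtin protein with a long polyglutamine stretch, and they enter only where the 4b effect in wild-type striatum is set against the effect elsewhere. The labels number the replicates without saying that each is a separate animal, so a p-value reflects only how these samples scatter, which may be technical.

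Histone deacetylases remove acetyl groups from the tails of histones, and the class I enzymes do so inside large corepressor complexes that keep genes silent. Inhibitors of these enzymes raise histone acetylation, and in cultured cells they are known for inducing cell cycle inhibitors and some histone genes. The striatum consists mostly of medium spiny neurons, which send the direct and indirect pathways of the basal ganglia, with smaller numbers of interneurons, glia and vessel cells among bundles of myelinated axons.

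All 8 arrays carried the markers of striatum. Ppp1r1b, which encodes DARPP-32, lay between 12.99 and 13.37 on the log2 intensity scale, against at most 10.18 on the 31 arrays of other regions, and Drd1, the dopamine receptor of the direct pathway, between 13.68 and 13.94 against at most 10.06. Expression of Eif2s3y, which is Y-linked, fitted the sex given in the labels for each array. On the 26 female arrays of the series no Y-linked probe examined was brighter than 6.75, which serves here as a background level, since the table came without detection calls. Median intensities of the 8 arrays ranged from 122.2 to 250.1 before normalization, and arrays of the same group correlated at 0.981 to 0.994 while arrays of different groups correlated at 0.982 to 0.992. Precision was limited by how many arrays there were. The 8 arrays came from 3 BeadChips, the glass slides that hold several arrays each. BeadChip 3 held 2 arrays of each group, BeadChip 6 held 1 treated and 2 control arrays, and the treated array 1 sat without a control.

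Arrays 2 and 4 of the control group and array 1 of the treated group stood apart in markers of neighbouring tissue. Control array 2 was high in choroid plexus genes: Folr1, a folate receptor, was at 10.34 against 6.51 to 7.20 on the other arrays of the comparison, and Kl, the ageing-related coreceptor klotho, at 11.76 against 7.22 to 8.24. The choroid plexus marker Ttr, the thyroid hormone carrier transthyretin, was at 14.25 there, although treated array 1 followed at 13.59. Control arrays 2 and 4 were high in Slc17a6, the vesicular glutamate transporter of thalamus, at 10.90 and 10.61 against 7.77 to 8.75 on the others, and in Prkcd, a protein kinase C with high levels in thalamus, at 10.81 and 10.36 against 7.75 to 8.47. Treated array 1 was high in the Purkinje cell gene Pcp2, at 11.26 against 6.34 to 7.75, and in Cbln1, a secreted synapse organiser of granule neurons, at 11.95 against 8.20 to 8.88. The mean of 13 cerebellar neuron genes, a list chosen after these values were seen, was 8.67 on that array and 7.57 to 7.85 on the other 7, while the lowest cerebellar array of the series had 10.4. Beside the results, the values without these 3 arrays are given for many of the genes and lists where they turn sign or move by more than 1.5 times. Only treated arrays 2 to 4 and control arrays 1 and 3 then remain, so p-values without the 3 arrays rest on smaller groups.

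**Figure D1:**
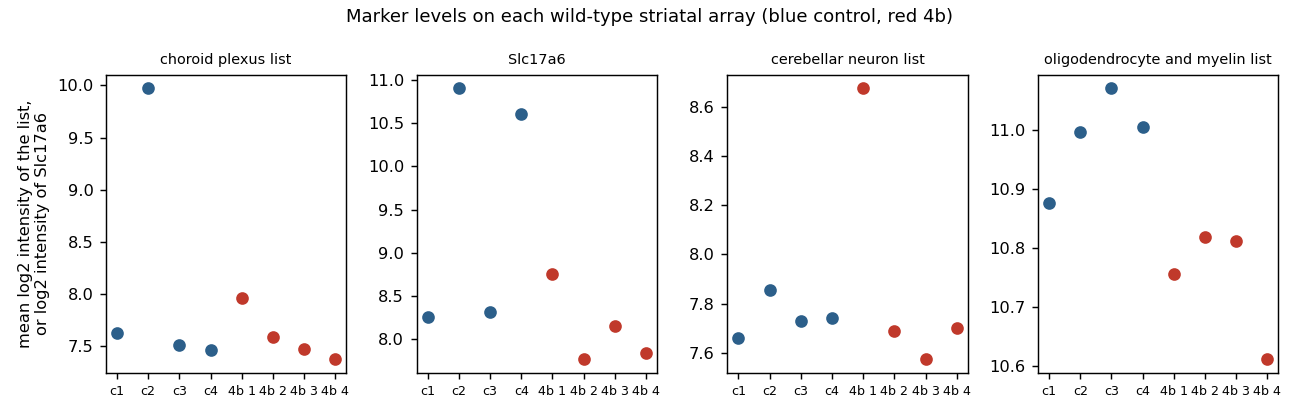
Mean log2 intensity of the choroid plexus, cerebellar neuron and oligodendrocyte lists, and log2 intensity of Slc17a6, on each of the 4 control arrays (blue) and the 4 treated arrays (red). Control array 2 stands alone for choroid plexus, control arrays 2 and 4 for Slc17a6 and treated array 1 for the cerebellar list, while the oligodendrocyte means of the groups do not overlap. The means of the neuroblast and vascular acute-phase lists, not drawn here, do not overlap either. The lists were chosen with earlier results of these data known.

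No gene passed the test for a 4b effect in wild-type striatum. After background correction and quantile normalization, 12030 genes or unnamed probes were bright enough to test with limma, and 0 had a Benjamini-Hochberg adjusted p under 0.05 (0% of those tested), the smallest adjusted p being 0.988. At an unadjusted p under 0.05 there were 400 genes, 3.33% of those tested, where a flat distribution of p-values gives 601.5. The count lay above that number with array weights, at 770, and with the BeadChip as a fixed term of the fit, at 764, and no gene was called in either. Of these, 212 were brighter with 4b (1.76%) and 188 dimmer (1.56%). The share of positive differences among them was 53%, and it became 68.8% of 192 genes when arrays were scaled to a common median instead of quantile-normalized. The arrays of the groups did not overlap for 136 genes with a positive difference (1.13%) and for 104 with a negative one (0.865%).

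The differences were small and their intervals narrow. The median absolute log2 difference over the tested genes was 0.07, the 95th percentile 0.27, and 94 genes (0.781%) differed by more than 1.5-fold, 34 with a positive and 60 with a negative difference. The 95% interval of a gene reached 0.25 log2 units to either side at the median, a factor of 1.19. For 98.3% of the genes that interval lay within a 2-fold change in either direction, and for 92.4% within a 1.5-fold change. These bounds hold for intensities with an offset of 50 added in background correction, and differences of dim genes depend on that offset. With an offset of 16 the dim genes Slitrk3 and Angel1, described below, differed by 0.52 and -0.51, in place of 0.35 and -0.37. Genes below are therefore given as measured differences with unadjusted p-values from limma, none of which passes adjustment over all genes, and the words higher and lower refer to the arrays measured.

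**Figure D2:**
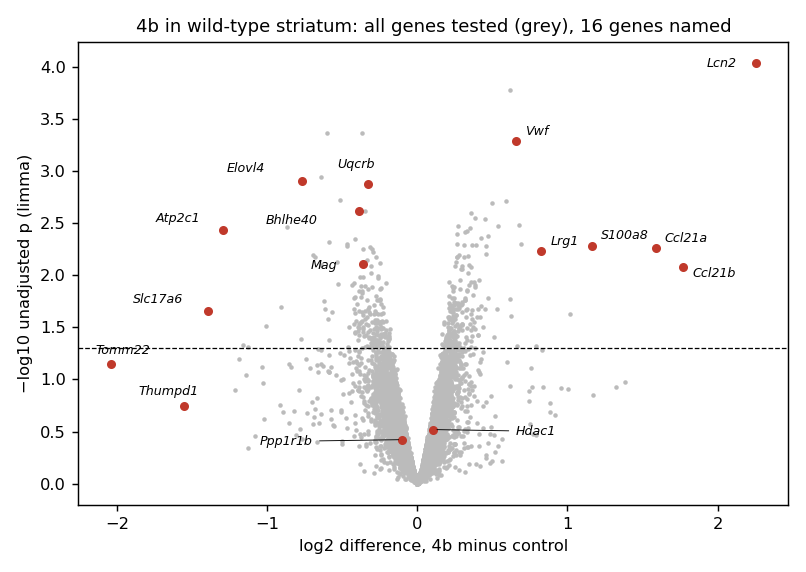
Log2 difference between treated and control wild-type striatum (horizontal) against −log10 of the unadjusted limma p (vertical) for the 12030 tested genes in grey, with 16 genes named in red and a dashed line at the threshold of 0.05. Lcn2 lies farthest to the upper right, at 2.26, and the markers Ppp1r1b and Hdac1 lie near 0.

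The smallest p belonged to Lcn2, a member of a list of vascular and acute-phase genes that did not share a direction. Many proteins of the acute phase are made by endothelium, liver and white blood cells during inflammation. Lcn2 encodes lipocalin 2, which binds bacterial iron carriers and is strongly induced in brain endothelium and astrocytes by systemic inflammation. The 250 bases before the start sites of Lcn2, of Lrg1, a plasma glycoprotein, and of S100a8, a calcium-binding protein of neutrophils, are shown because these are the members with the largest positive differences that the sequence table holds. They come from RefSeq on GRCm38.p6, at chr2:32387740-32387989 on the minus strand, chr17:56121947-56122196 on the minus strand and chr3:90668821-90669070 on the plus strand. Capitals mark matches to a motif searched on both strands.
Lcn2: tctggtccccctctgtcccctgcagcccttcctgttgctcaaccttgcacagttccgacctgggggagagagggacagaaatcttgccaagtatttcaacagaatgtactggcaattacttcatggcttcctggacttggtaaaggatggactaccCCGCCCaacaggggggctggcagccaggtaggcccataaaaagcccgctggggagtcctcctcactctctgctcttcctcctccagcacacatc
Lrg1: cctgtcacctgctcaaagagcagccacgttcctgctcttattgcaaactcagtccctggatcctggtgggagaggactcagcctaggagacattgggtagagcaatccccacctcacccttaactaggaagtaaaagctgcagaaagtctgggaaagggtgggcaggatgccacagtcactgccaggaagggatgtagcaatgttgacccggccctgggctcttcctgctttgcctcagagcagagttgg
S100a8: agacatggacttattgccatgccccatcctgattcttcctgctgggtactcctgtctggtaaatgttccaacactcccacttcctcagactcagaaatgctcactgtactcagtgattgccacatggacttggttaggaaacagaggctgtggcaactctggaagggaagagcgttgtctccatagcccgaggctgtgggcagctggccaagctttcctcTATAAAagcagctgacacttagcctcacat
The Lcn2 window held GGGCGG, the GC box of Sp1, on the other strand, as CCGCCC from base 157 of the window counted from its 5′ end, a motif found in 32.7% of 32851 promoters of this length. The S100a8 window held TATAAA, the TATA box, at base 221, found in 12.4%. TTCNNNGAA, the STAT site, found in 7.02% of promoters, was in none of the 3 windows.

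Lcn2 was at 8.24, 9.02, 9.29 and 8.35 on the treated arrays and at 6.60, 6.11, 6.63 and 6.53 on the control arrays. Every treated array was thus brighter than every control array, and the control arrays were all below the background level of 6.75. The means were 8.73 ± 0.51 and 6.47 ± 0.24 (SD, n = 4 each), a fitted log2 difference of 2.26 (95% interval 1.32 to 3.19, limma unadjusted p = 9.19e-05, adjusted p = 0.988). Against the background level the treated mean was at least 3.94-fold higher. The difference was 2.24 within BeadChip 3 and 2.67 within BeadChip 6. A fit of the 8 arrays alone, which takes the spread from these arrays and not from all 16 striatal ones, gave Lcn2 an adjusted p of 0.00848 and called no other gene. With the replicate number as a block in that fit its adjusted p was 0.0702, and no gene was called.

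Vwf encodes von Willebrand factor, the clotting protein that endothelial cells store. It was at 9.79, 10.43, 10.03 and 9.83 with 4b and at 9.33, 9.56, 9.38 and 9.19 in control arrays, without overlap. The log2 difference was 0.66 (95% interval 0.33 to 0.98, limma unadjusted p = 5.16e-04), or 1.58-fold. Lrg1, at 9.26, 9.46, 9.43 and 8.83 against 8.36, 8.50, 8.50 and 8.32, did not overlap either. Its difference of 0.83 (0.27 to 1.38, limma unadjusted p = 0.00587) came with treated arrays 2 and 3 as the brightest and treated array 4 nearest to the control arrays. S100a8 overlapped between the groups, at 8.22, 7.90, 9.06 and 7.22 with 4b and at 7.08, 6.75, 7.57 and 6.34 in control arrays. Its means of 8.10 ± 0.76 and 6.93 ± 0.52 (SD, n = 4 each) differed by 1.16 (0.40 to 1.93, limma unadjusted p = 0.00519), and by 0.74 without treated array 1 and control arrays 2 and 4. In bulk tissue, more cells of a type and more RNA per cell cannot be told apart, and this holds for these genes and for every cell type list below.

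The vascular acute-phase list, which was chosen with earlier results of these data known, had 20 tested members. Beside Lcn2, Vwf, Lrg1 and S100a8, at an unadjusted p under 0.05 with a positive difference, it had Serpina3n with a negative one, where 1.76% of all tested genes had a positive and 1.56% a negative difference at that p. Serpina3n, a protease inhibitor of reactive astrocytes and the acute phase, was at 8.57, 8.52, 8.90 and 9.09 with 4b and at 9.62, 9.13, 9.21 and 9.57 in control arrays, without overlap and with a difference of -0.61 (limma unadjusted p = 0.0211). The list thus did not share 1 direction. Socs3, the feedback inhibitor of cytokine signaling, differed by 0.27 (limma unadjusted p = 0.0519) and Osmr, the oncostatin M receptor, by 0.32, and the other 13 tested members, such as the adhesion molecules Icam1 at -0.06 and Vcam1 at -0.01, lay between -0.07 and 0.28. The median of the list was 0.12 against 0.00 over all tested genes. Without treated array 1 and control arrays 2 and 4 the list had 3 members at an unadjusted p under 0.05, all positive, and a median of 0.19.

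**Figure D3:**
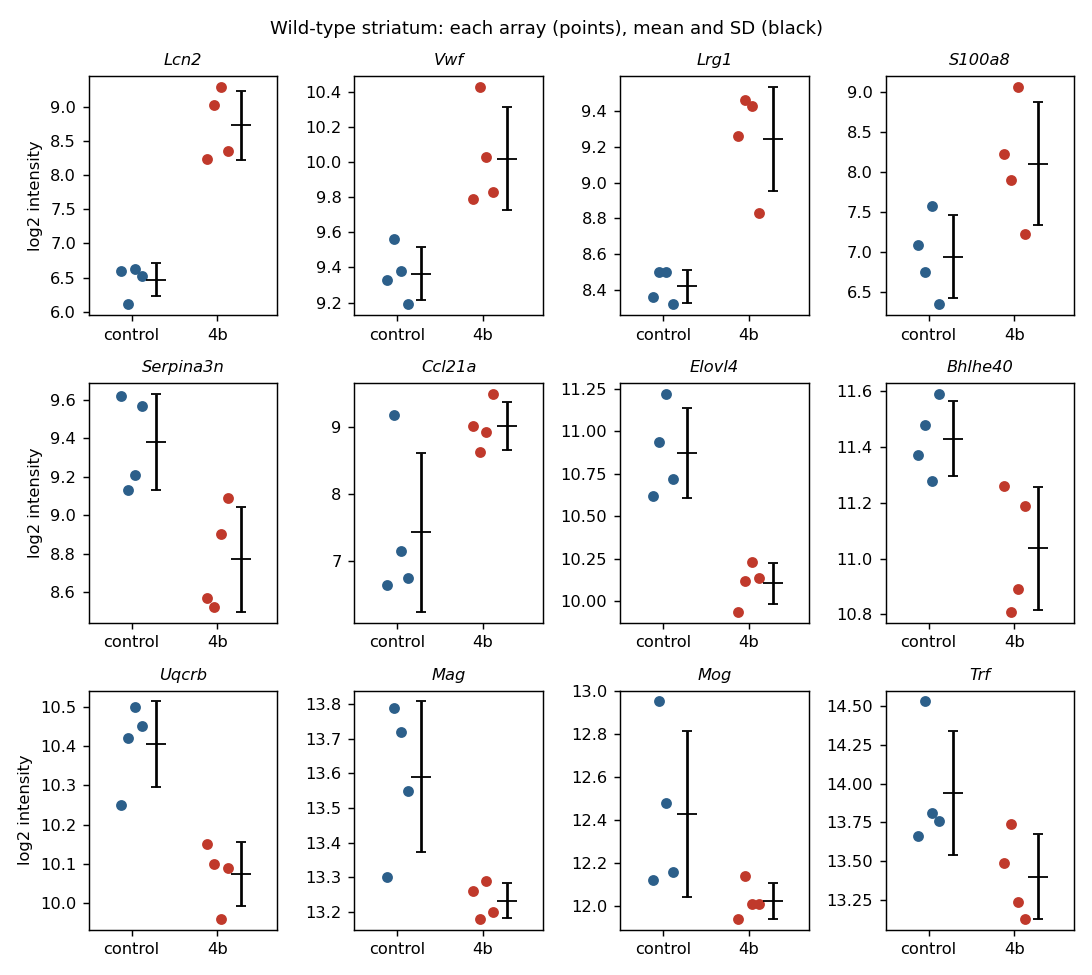
Log2 intensity of 12 genes on each control array (blue) and each 4b array (red) of wild-type striatum, with the mean and SD in black. Lcn2, Vwf, Lrg1, Serpina3n, Elovl4, Bhlhe40, Uqcrb and Mag do not overlap between the groups, S100a8, Mog and Trf do, and in Ccl21a control array 2, at 9.18, lies among the treated arrays.

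Outside that list, the largest positive differences were those of Ccl21a and Ccl21b, copies of the chemokine that draws lymphocytes and dendritic cells through CCR7. The copies are nearly identical, so their probes may read each other's transcripts. Ccl21a was at 9.02, 8.62, 8.92 and 9.49 with 4b and at 6.64, 9.18, 7.14 and 6.74 in control arrays. Control array 2 lay inside the treated range, and the other control arrays lay more than 1 log2 unit below it. The difference was 1.59 (0.54 to 2.64, limma unadjusted p = 0.00547), and 2.17 without control array 2. Ccl21b gave 1.77 (0.52 to 3.02, limma unadjusted p = 0.00822).

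Among the other genes with small p and a positive difference, ILMN_1246135, a probe without a gene name in the annotation used here, was at 8.99 to 9.38 with 4b and at 8.49 to 8.73 in control arrays, a difference of 0.62 (0.35 to 0.89, limma unadjusted p = 1.64e-04). Slc17a5, the lysosomal exporter of sialic acid, differed by 0.59, with treated arrays at 8.36 to 8.97 and control arrays at 7.94 to 8.37. Pdzd2, a protein with PDZ domains, differed by 0.50, from 8.75 to 8.88 in control arrays to 9.13 to 9.47 with 4b. Kdm2a, a demethylase of histone H3, differed by 0.36 and Glyctk, glycerate kinase, by 0.38. Ppp1r13b, a partner of p53, differed by 0.68, which was 0.97 within BeadChip 3 and 0.17 within BeadChip 6. Slitrk3, an adhesion protein of inhibitory synapses, was at 6.78 to 6.98 on treated arrays 1 to 3 and at 7.13 on the fourth, while all its control arrays were below the background level, so its treated mean was at least 1.14-fold higher. Apart from Slc17a5 these genes did not overlap between the groups, and their unadjusted limma p-values lay between 1.64e-04 and 0.00348.

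The genes with the smallest p and a negative difference belonged to varied classes. Elovl4, an enzyme that elongates very long chain fatty acids, was at 9.94, 10.12, 10.23 and 10.14 with 4b and at 10.62, 10.94, 11.22 and 10.72 in control arrays. Every treated array lay below every control array, and the difference was -0.77 (-1.18 to -0.35, limma unadjusted p = 0.00123). Bhlhe40, a transcriptional repressor that feeds back on the circadian clock, was at 11.26, 10.81, 10.89 and 11.19 against 11.37, 11.48, 11.28 and 11.59, a difference of -0.39 (-0.62 to -0.16, limma unadjusted p = 0.00243) in which the nearest arrays of the groups were close. Of the 14 circadian genes tested it alone had an unadjusted p under 0.05, where 3.33% of all tested genes did, and the list's median was 0.02. Uqcrb, a subunit of respiratory complex III, was at 10.15, 10.10, 9.96 and 10.09 with 4b and at 10.25, 10.42, 10.50 and 10.45 in control arrays. Its difference of -0.33 (limma unadjusted p = 0.00132) was the only one with an unadjusted p under 0.05 among 26 respiratory chain genes, whose median was -0.04. A single member at that p in lists of this length is near the share over all genes and is not a result about the list.

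Catsperz, a subunit of the sperm calcium channel, differed by -0.60, Cuedc1, a protein with a ubiquitin-binding domain, by -0.64, and Angel1, a partner of the cap-binding factor eIF4E, by -0.37. Only 1 of the 4 treated arrays was above the background level for Angel1. All 3 lay lower on every treated array than on any control array. The nuclear receptor Nr2f2 differed by -0.51, with control arrays at 7.41 to 8.04 and treated arrays at 7.07 to 7.33, and control arrays 2 and 4, those high in Slc17a6, were its brightest. Without these and treated array 1 it differed by -0.33. Tmcc3, a membrane protein of the endoplasmic reticulum, differed by -0.35, Resp18, a protein of neuroendocrine secretory granules, by -0.31, and Gatm, the first enzyme of creatine synthesis, by -0.47, again without overlap. Atp2c1, the calcium and manganese pump of the Golgi, was at 8.40, 7.12, 7.24 and 6.88 with 4b and at 8.40, 8.44, 9.12 and 8.85 in control arrays, a difference of -1.29 (-2.10 to -0.48, limma unadjusted p = 0.00366). Treated array 1, the only array of its BeadChip here, lay at the control level. Pik3r4, the regulatory subunit of the lipid kinase Vps34, had the same layout, with treated array 1 at 7.95, the other treated arrays at 6.60 to 6.87 and the control arrays at 7.71 to 8.15. Of its treated arrays 2 were above the background level.

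Genes of oligodendrocytes, the cells that wrap axons in myelin, gave the list with the most members at small p. Of 17 tested members, 15 had a negative difference and 6 an unadjusted p under 0.05, all of them negative, where 1.56% of all tested genes had a negative difference at that p. Trf, transferrin, the iron carrier that oligodendrocytes make, was at 13.49, 13.74, 13.24 and 13.13 with 4b and at 13.66, 14.53, 13.81 and 13.76 in control arrays. The groups overlapped through treated array 2, and the difference was -0.54 (-0.91 to -0.16, limma unadjusted p = 0.00749). Mag, the myelin adhesion protein of the axon-facing membrane, was at 13.26, 13.18, 13.29 and 13.20 against 13.30, 13.79, 13.72 and 13.55, without overlap but with control array 1 next to the treated arrays. Its difference was -0.36 (-0.61 to -0.11, limma unadjusted p = 0.00769).

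Mog, a surface protein of the outer myelin layer, was at 11.94, 12.14, 12.01 and 12.01 with 4b and at 12.12, 12.95, 12.48 and 12.16 in control arrays, so that control arrays 1 and 4 lay next to the treated arrays and control arrays 2 and 3 above them. Cnp, an enzyme of the myelin sheath, differed by -0.34, Fa2h, which hydroxylates the fatty acids of myelin lipids, by -0.31, and Gjc3, a connexin of myelin, by -0.25. Opalin, a membrane protein of mature oligodendrocytes, differed by -0.59 with a wide interval (-1.27 to 0.09). Mbp, the major myelin basic protein, did not follow: it was at 14.73 to 14.81 with 4b and at 14.74 to 14.77 in control arrays, a difference of 0.00 (-0.16 to 0.17). Cldn11, the claudin of the sheath, differed by -0.14 and Nkx6-2, a transcription factor of the lineage, by 0.10.

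The median of the oligodendrocyte list was -0.25, against 0.00 over all tested genes, and the mean level of the list lay between 10.61 and 10.82 on the treated arrays and between 10.88 and 11.07 on the control arrays, so the list means did not overlap. This was not particular to the list. The neuroblast means, at 8.48 to 8.64 with 4b and 8.25 to 8.41 in control arrays, did not overlap either. Nor did the vascular acute-phase means, at 8.51 to 8.70 and 8.27 to 8.38. That list holds Lcn2, Vwf, Lrg1 and S100a8, so its means are not separate from the differences of those genes. In the remaining lists among the 37 the means overlapped. The lists were chosen with earlier results of these data known, so separate means are no support for a list. Control array 2, high in choroid plexus genes, was the brightest for the oligodendrocyte genes Trf, Mag, Mog, Cnp, Fa2h and Opalin. It was not the brightest for Gjc3, Cldn11 or Nkx6-2. The mean level of the whole list was highest on control array 3, at 11.07, and that array did not stand apart in markers of neighbouring tissue. The median was -0.23 without control array 2, with 3 members at an unadjusted p under 0.05. Whether neighbouring tissue had a part in the oligodendrocyte difference was not tested beyond leaving arrays out. Those at that p were also 3 without control array 3, 9 without control array 1 and 2 with median scaling. The median was -0.22 without treated array 1 and control arrays 2 and 4, and then no member had a p under 0.05 by limma. That fit holds fewer arrays in each group, so its count of members at small p cannot be compared with that of all arrays. Mog then differed by -0.25, Gjc3 by -0.15, Cldn11 by -0.25 and Nkx6-2 by -0.06. It was -0.25 with the BeadChip as a term of the fit, where all 17 members were negative. The precursors of oligodendrocytes, with 6 tested markers, had a median of -0.04, and of 0.045 without those 3 arrays.

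Genes of neuroblasts and progenitors, the migrating and dividing cells of the subventricular zone next to the striatum, lay the other way. All 9 tested members had a positive difference, where 51.4% of all tested genes did, and 3 had an unadjusted p under 0.05, against 1.76% of all tested genes with a positive difference at that p. Dcx, the microtubule protein doublecortin of migrating neuroblasts, was at 9.01, 9.60, 9.14 and 9.47 with 4b and at 8.81, 9.18, 8.98 and 8.85 in control arrays. Treated arrays 1 and 3 lay below control array 2, and the difference was 0.35 (0.04 to 0.66, limma unadjusted p = 0.0291). Dlx2, a transcription factor of these progenitors, differed by 0.36 and Igfbpl1, a secreted protein of neuroblasts, by 0.25, and both overlapped between the groups. Sox11, a transcription factor of young neurons, differed by 0.23 and Top2a, the topoisomerase of dividing cells, by 0.29, and neither had a p under 0.05. The median of the list was 0.25, and 0.21 without treated array 1 and control arrays 2 and 4, when 8 of the 9 were positive. It was 0.161 without treated array 2 alone and also 0.161 without control array 2 alone. With median scaling 1 member had an unadjusted p under 0.05.

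Of 18 tested endothelial genes 17 had a positive difference, where 51.4% of all tested genes did, and the median was 0.07. The median depended on single arrays: it was -0.005 when control array 3 was left out, with 8 positive members, and 0.242 without treated array 1 and control arrays 2 and 4, with 15 positive members. Ly6c1, a surface protein of brain endothelium, was at 12.42, 12.99, 12.78 and 12.57 with 4b and at 12.43, 12.59, 11.97 and 12.26 in control arrays, a difference of 0.38 (limma unadjusted p = 0.0278) with overlap. Cldn5, the claudin of the blood-brain barrier, differed by 0.29 and Pecam1, the general endothelial marker, by 0.12, neither with a p under 0.05. Without those 3 arrays Ly6c1 differed by 0.58 and Pecam1 by 0.33. The 0.66 of Vwf was the largest difference in the list. Of the red cell and granulocyte markers, 8 were tested, and S100a8 was the only one with a positive difference, the others lying at or above -0.21.

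The markers of medium spiny neurons, which Huntington's disease lowers, showed no difference that passed. Of 8 direct pathway genes 6 had a positive difference, of 5 indirect pathway genes 4, and of 23 genes common to both 15, with medians of 0.09, 0.02 and 0.07. Ppp1r1b was at 13.37, 13.12, 12.99 and 13.24 with 4b and at 13.35, 13.20, 13.27 and 13.31 in control arrays, a difference of -0.10 (-0.34 to 0.13). The treated arrays lay on both sides of the control arrays. Drd1 differed by 0.03 (-0.22 to 0.29), Drd2, its counterpart in the indirect pathway, by 0.02 (-0.27 to 0.31), and Pdyn, the dynorphin precursor, by -0.03 (-0.32 to 0.26). Each of these intervals lies within a 1.5-fold change. Penk, the enkephalin precursor, differed by -0.12 (-0.48 to 0.23), Tac1, the substance P precursor, by 0.20 (-0.07 to 0.48), Pde10a, the cyclic nucleotide phosphodiesterase of these neurons, by 0.18 (-0.10 to 0.46), and Cnr1, the cannabinoid receptor CB1, by 0.15 (-0.13 to 0.44). Without treated array 1 and control arrays 2 and 4, Ppp1r1b differed by -0.19, Penk by -0.26, Pdyn by -0.08, Drd1 by 0.08, Drd2 by -0.01 and Cnr1 by 0.30, none with an unadjusted limma p under 0.05. The medians of the 3 lists were then 0.153, -0.013 and 0.14.

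Sfxn1, a mitochondrial serine carrier, and Arpp19, a protein phosphatase inhibitor phosphorylated in response to cyclic AMP, were the members of these lists with an unadjusted p under 0.05. Sfxn1 was at 13.56, 14.00, 13.63 and 13.79 with 4b and at 13.46, 13.35, 13.52 and 13.46 in control arrays, a difference of 0.30 (limma unadjusted p = 0.0292). Arpp19 differed by 0.28 (limma unadjusted p = 0.0206), from 13.04 to 13.49 in control arrays to 13.54 to 13.68 with 4b. Neither gene overlapped between the groups. Htt, the mouse huntingtin gene, differed by 0.11 (-0.16 to 0.37), and by -0.04 without the 3 arrays that stood apart. Bdnf, the neurotrophin that cortical axons supply to striatum, was at or below 6.65 on all 8 arrays, under the background level, and was not tested.

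The RNA of the class I histone deacetylases showed no difference that passed. Hdac1 was at 9.26, 8.82, 9.25 and 9.03 with 4b and at 8.99, 8.94, 8.99 and 9.01 in control arrays, a difference of 0.11 (-0.11 to 0.32). The treated arrays spread on both sides of a tight control group. Hdac3, the deacetylase of the NCoR complexes, was at 11.93, 11.78, 11.87 and 11.90 against 11.88, 11.63, 11.99 and 11.86, a difference of 0.03 (-0.15 to 0.21). Hdac2 differed by -0.02 (-0.26 to 0.22) and Hdac8, the X-linked class I enzyme, by 0.14 (-0.06 to 0.34). Without treated array 1 and control arrays 2 and 4 the differences were 0.04 for Hdac1, 0.22 for Hdac2, -0.08 for Hdac3 and 0.30 for Hdac8, the last with a limma unadjusted p of 0.0168. Over the 23 tested class I enzymes and corepressors none had an unadjusted p under 0.05, the differences lay between -0.14 and 0.17 and the median was 0.03. Of 11 deacetylases of the other classes none had an unadjusted p under 0.05 either, with differences between -0.12 and 0.16. Against the background share of 3.33%, an absence in lists of this length is not a result about them.

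Genes that deacetylase inhibitors induce in cultured cells spread more widely, from -0.63 to 0.53 over 25 tested members. Of these, H1f2, a linker histone, had an unadjusted p under 0.05, a share of 4% against 3.33% of all tested genes, which is not a result about the list. It was at 12.87, 13.30, 12.32 and 13.14 with 4b and at 12.51, 12.88, 11.72 and 12.40 in control arrays, a difference of 0.53 (0.09 to 0.97, limma unadjusted p = 0.0209) with overlap, and 0.80 without the 3 arrays that stood apart. Cdkn1c, the cell cycle inhibitor p57, was at the other end with -0.63 (-1.33 to 0.07), and control array 2 was its brightest, at 11.52 against 9.26 to 10.14 on the others. Cdkn1a, the cell cycle inhibitor p21, was at 10.09, 9.49, 10.22 and 10.38 against 9.97, 10.11, 9.83 and 9.75, and its difference of 0.13 had a wide interval, from -0.90 to 1.16. Hexim1, the inhibitor of the elongation factor P-TEFb, differed by 0.17 (-0.06 to 0.39). Its treated arrays, at 10.30 to 10.38, lay above its control arrays, at 10.09 to 10.27. The median of the list was 0.03.

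Among 11 histone acetyltransferases and readers of acetylation, Kat7, which acetylates histones at replication origins and genes, was at 9.91, 9.86, 9.87 and 9.78 with 4b and at 8.90, 8.95, 9.90 and 9.18 in control arrays. The treated arrays lay within a narrow range, control array 3 lay among them and the other control arrays below. The difference was 0.62 (0.13 to 1.11, limma unadjusted p = 0.0168). Crebbp, the coactivator CBP, differed by 0.28 (-0.01 to 0.57), with treated array 1 at 8.98, below 3 of the control arrays, and by 0.43 without the 3 arrays that stood apart. The median of the list was 0.08.

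In the remaining lists a few members had small p, and most held no more than 1 such member, near the 3.33% of all tested genes. Of 17 heat shock genes and chaperones, 15 had a negative difference with a median of -0.07, and the median was 0.01 when control array 4 was left out and -0.026 without the 3 arrays that stood apart. Hspa4, a cofactor of Hsp70, differed by -0.27 (limma unadjusted p = 0.0173). GABAergic interneuron markers diverged, with a negative difference for 8 of 12 tested members and a median of -0.09. Nos1, the neuronal nitric oxide synthase, was at 7.13 to 7.43 with 4b and at 6.78 to 7.13 in control arrays. The lowest of these lay just above the background level of 6.75, and the difference was 0.31 (limma unadjusted p = 0.00511). Sst, the somatostatin precursor of the same interneurons, differed by -0.23 (limma unadjusted p = 0.0278). Chat, the enzyme that makes acetylcholine, differed by 0.21 (limma unadjusted p = 0.0377), and by 0.36 without those arrays. Astrocyte genes had a median of -0.02, with Sox9, a transcription factor of glia, at 0.40 (limma unadjusted p = 0.0372) and Gfap, the filament protein of reactive astrocytes, at -0.45 (-0.92 to 0.03), which became -0.29 without them. Microglial genes had a median of -0.09 and no member with an unadjusted p under 0.05, Aif1 being at -0.28. Their median turned to 0.032 without the 3 arrays, and that of the astrocyte genes was -0.046.

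Further members with an unadjusted p under 0.05 by limma were Myh11, the myosin of smooth muscle (0.35), Ntrk2, the Bdnf receptor TrkB (-0.26), H2-K1, a class I histocompatibility gene (0.32), and Atf4, a transcription factor of the stress response (-0.33). Of these, Ntrk2 did not overlap between the groups. For H2-K1 only 1 control array and 3 treated arrays were above the background level. Myh11 differed by 0.53 without the 3 arrays that stood apart. The thalamic genes Slc17a6 and Prkcd differed by -1.39 and -1.13, and their control arrays 2 and 4 stood apart as described. Without those arrays and treated array 1 the values were -0.36 and 0.05. The choroid plexus list had a median of -0.69 with 13 of 14 members negative, and of 0.04 without control array 2.

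**Figure D4:**
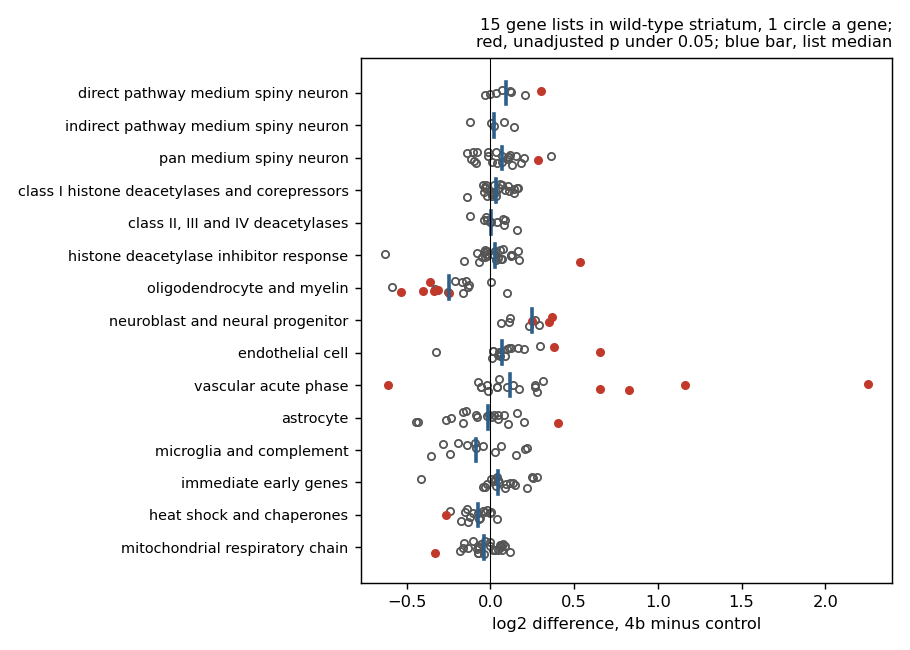
Log2 difference between treated and control wild-type striatum for each tested member of 15 gene lists, 1 circle a gene, with members at an unadjusted limma p under 0.05 in red and the list median as a blue bar. The oligodendrocyte median lies at -0.25, the neuroblast median at 0.25, and the medium spiny neuron and deacetylase lists gather around 0.

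The effect of 4b was next compared between genotypes within striatum. Wild-type and transgenic arrays share no controls, and the difference of the effects was tested as an interaction. Of 12030 genes 0 were called (0%, smallest limma adjusted p = 1), and 243 had an unadjusted p under 0.05 (2.02%). For Lcn2 no difference of effects is given, because all its wild-type control arrays were below the background level. In transgenic striatum its treated arrays were at 7.63 to 10.44 and its control arrays at 6.26 to 7.25, again without overlap. Vwf gave 0.66 and 0.60, with a difference of 0.06 (-0.40 to 0.52), and Lrg1 0.83 and 0.76, with a difference of 0.07 (-0.72 to 0.85). S100a8 gave 1.16 and 0.87. For Vwf the interval of the difference lay within a 1.5-fold change.

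Serpina3n differed by -0.61 in wild-type and 0.24 in transgenic striatum, with an interaction of -0.85 (-1.57 to -0.13, limma unadjusted p = 0.0232). For the oligodendrocyte list the wild-type median was -0.25 and the transgenic median -0.02. The interaction was negative for 16 of 17 members with a median of -0.20, against 0.00 over all genes, and 2 members had an unadjusted p under 0.05, both negative (1.08% of all genes had a negative interaction at that p): Mag with -0.47 (-0.83 to -0.12) and Trf with -0.56 (-1.09 to -0.03). None of the members passed the adjustment over all genes, the smallest limma adjusted p being 1. Elovl4 gave -0.77 and -0.07, an interaction of -0.70 (-1.29 to -0.11, limma unadjusted p = 0.0232), Dcx 0.35 and -0.19, an interaction of 0.54 (0.10 to 0.98), and Kat7 0.62 and -0.29, an interaction of 0.91 (0.21 to 1.60). These genes, Serpina3n and the oligodendrocyte list are given here for their wild-type differences. Those differences are part of the interaction, so it leans in the same direction and is no separate support for them. It was not fitted without the arrays that stood apart. The smallest p-values of the interaction belonged to Tmcc3, with an interaction of -0.58, Slitrk3, whose wild-type control arrays were below the background level, and Gstm1, a glutathione transferase, with -0.49, which differed by -0.17 in wild-type and by 0.32 in transgenic striatum. Without the arrays that stood apart Gstm1 differed by -0.27 in wild-type striatum. The list medians in transgenic striatum were 0.16 for the vascular acute-phase genes and 0.05 for the neuroblast genes.

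The same effect was then compared with wild-type cortex and wild-type cerebellum. The labels do not say whether the regions came from the same animals. Against cortex 0 of 11658 genes were called (0%) and 219 had an unadjusted p under 0.05 (1.88%), the smallest belonging to Gkn1, a protein of the stomach lining, with a difference of effects of 0.49. Against cerebellum 0 of 11501 were called (0%) and 1034 had an unadjusted p under 0.05 (8.99%). This count of 0 changed with the fit: 16 genes were called with the BeadChip as a fixed term, 1 with it as a random term, 10 without cerebellar control array 1, 3 without cerebellar control array 2 and 1 without striatal control array 1. The smallest limma adjusted p there was 0.081, for 0610009B22Rik, whose effect was -0.17 in striatum and 0.54 in cerebellum. Haus1, a subunit of the augmin complex of the spindle, with -0.91, and Cenpb, a centromere protein, with -0.55, followed at adjusted p = 0.191. The cerebellar control group held 3 arrays.

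Lcn2 differed by 1.91 in wild-type cortex (0.94 to 2.87) and by 0.85 in wild-type cerebellum (-0.82 to 2.51), where 1 control array reached 11.17. Vwf differed by 0.53 and 0.65 in these regions and Lrg1 by 0.64 and 0.79, so both had a positive difference in each of the 4 comparisons of treated with control arrays. S100a8 differed by 0.82 in cortex (-0.29 to 1.94) and by -1.63 in cerebellum (-3.86 to 0.60), where the 3 control arrays spanned 7.74 to 14.1. Ccl21a differed by 2.79 in cortex and 2.30 in cerebellum and by 0.25 in transgenic striatum. Elovl4 differed by -0.93 in cortex and -0.83 in cerebellum, and Atp2c1 by -1.50 and -1.28. Bhlhe40 differed by -0.38 in cortex and 0.20 in cerebellum. Mag differed by 0.07 in cortex and -0.28 in cerebellum, and Trf by -0.23 and -0.65.

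**Figure D5:**
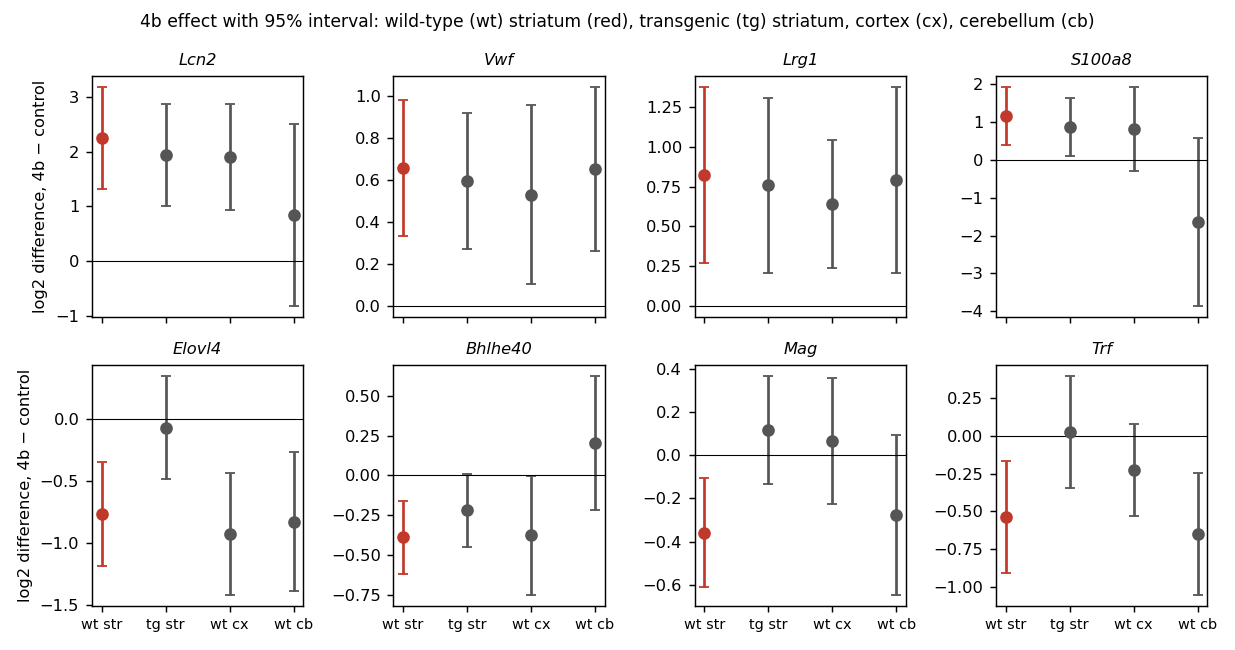
Log2 difference between treated and control arrays with its 95% interval for 8 genes in wild-type striatum (red) and in transgenic striatum, wild-type cortex and wild-type cerebellum (grey). Vwf and Lrg1 lie above 0 in all 4 with intervals that overlap, Lcn2 has a wide interval in cerebellum and control arrays below the background level in wild-type striatum, and Elovl4 lies below 0 in the 3 wild-type comparisons and at -0.07 in transgenic striatum.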

How the data were processed

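Total RNA was hybridised by the authors to Illumina bead arrays. Intensity values without normalization were deposited for 24613 probes, made with BeadStudio per the submitters' processing notes (version not given in the sources used here), and 1 intensity column matched no sample and was not used. A second deposited table gave log2 values of these probes. The largest gap between them and quantile-normalized log2 intensities was 0.0115, and they served as an alternative.

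Background was corrected by normexp (offset 50) and arrays were quantile-normalized, all 47 together, in R 4.3.3 with limma 3.58.1. Symbols came from the platform annotation, updated through a GRCm38.p6 gene table (20968 probes matched). The probe with the highest mean stood for a gene, leaving 19596, and 12030 above the 40th percentile in striatum were tested. Differences of 4b against control were fitted with lmFit and eBayes over the 16 striatal arrays in 4 groups, and differences of the effect between regions over all arrays. Tests were two-sided, and calls needed an adjusted p under 0.05 (Benjamini-Hochberg). Groups and replicate numbers came from the titles.

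The arrays, the 37 gene lists (613 of 729 entries on the arrays) and the tests were chosen with earlier results of these data known. Named genes were the 15 of each sign with the smallest p, up to 4 members a list by p, and fixed striatal, deacetylase and Huntington's disease genes. Serpina3n, Socs3, Osmr, Icam1, Vcam1, Ccl21a, Ccl21b, Cnp, Fa2h, Opalin, Mbp, Cldn11, Nkx6-2, Top2a, Cldn5, Pecam1, the markers of neighbouring tissue and the genes at separate levels were added after their values were seen. The text gives a part of the named genes. In simulated arrays with independent genes, the test of 12030 genes found 96% of 100 genes altered 2-fold and 62% of 100 altered 1.5-fold for 4b in wild-type striatum, and 86% and 33% for the difference between genotypes. Unaltered genes called numbered 10 and 3. Planting 200 altered genes makes the adjustment more lenient than where few genes differ. The simulation also held no BeadChip or tissue differences, so these shares do not give the power of the test in these data. Alternatives covered background correction, normalization, filter, probe choice, intensity trend, array weights, BeadChip, sex, the replicate number, the arrays in the fit and leaving out each array. Promoters came from RefSeq. Plots used matplotlib 3.10.9 (Python 3.11.15).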

Additional observations from a re-analysis of the deposited data

Results flagged for a closer look

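Of 180 groups of 4 arrays examined, for 90 genes in wild-type striatum, 14 held an array that lay apart from the other 3 by more than Dixon's 95% limit, and chance gives about 1 in 20. The genes include some added after their values were seen, such as Folr1, Kl, Cbln1, Thumpd1 and Ccl21b, so the count cannot be judged against that rate. Control array 2 lay apart in Ccl21b at 9.74 (the others at 6.72 to 7.02), in Folr1 at 10.3, in Kl at 11.8 and in Thumpd1, an RNA acetylation adaptor, at 6.56, where the others were at 10.3 to 10.4. Control array 1 lay apart in Cbln1 at 8.88, control array 3 in Kdm2a at 6.86 and in Igfbpl1 at 7.01, and control array 4 in Hspa4 at 7.43. Treated array 1 lay apart in Cbln1 at 11.9 (the others at 8.20 to 8.73), in Cnr1 at 9.29 and in Crebbp at 8.98. Treated array 2 lay apart in Penk at 11.1 and in Thumpd1 at 10.7, and treated array 4 in Arpp19 at 13.7. The choroid plexus, cerebellar and thalamic markers of control arrays 2 and 4 and treated array 1 are given with the results they touch, and their part in those results was not tested beyond leaving the arrays out.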

How the results depend on the processing

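The count of 0 called genes for 4b in wild-type striatum held under 25 of 26 alternatives, and 1 gene, Lcn2, was called (adjusted p = 0.00848) in a fit of the 8 arrays alone, which the replicate block ended (adjusted p = 0.0702, 0 called), while with the BeadChip as a fixed term it had an adjusted p of 0.0507. Leaving out each array in turn gave 0 calls every time. The 400 genes at an unadjusted p under 0.05 became 192 with median scaling (132 positive, 60 negative), 752 with no filter on dim probes, 245 with a filter at the 60th percentile, 770 with array weights and 764 with the BeadChip as a fixed term (369 positive, 395 negative), and lay between 344 and 565 when an array was left out. Median scaling moved the median difference of all genes to 0.02. The difference between genotypes and that between striatum and cortex gave 0 calls under all 29 alternatives each, leave-one-out included (0 to 0). The difference between striatum and cerebellum gave 0 calls under 23 of 28, but 16 with the BeadChip as a fixed term, all lower in striatum, 1 with it as a random term (0610009B22Rik), and 0 to 10 when an array was left out. The 10 came without cerebellar control array 1, 3 came without cerebellar control array 2 and 1 without striatal control array 1. The cause was not tested. Prkcd turned from -1.13 to 0.051 without treated array 1 and control arrays 2 and 4, an alternative chosen after seeing the data. Deviations of same-numbered treated and control arrays correlated little, at 0.03, 0.16, 0.11 and -0.13. The best match had the same number for replicates 2 and 3 and another number for replicates 1 and 4. These values cannot settle whether the numbers pair the samples. The replicate block gave 434 genes at an unadjusted p under 0.05 and 0 calls. With 4 arrays a group, 1.5-fold and larger changes of variable genes could be missed.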

Other observations

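Some genes lay at 2 separate levels across the 8 arrays. In 34 of the 12030 tested genes and probes, 29 of them named, at least 2 arrays lay on each side of a gap of more than 1.5 log2 units that covered at least 0.5 of the gene's range, a rule set after seeing the data. They made up 12 of the 24 genes that differed by more than 2-fold between treated and control striatum. This share follows in part from the rule, since such levels give a large difference when they split unequally between the groups. Among these 12 genes were Lcn2, low on the 4 control arrays, and Ccl21b, low on 3 control arrays. Tomm22, a receptor of mitochondrial protein import, was at 11.31, 7.74, 7.62 and 10.95 with 4b and between 10.76 and 12.02 in control arrays, a difference of -2.04 with a wide interval (-4.28 to 0.19), and -3.24 without treated array 1 and control arrays 2 and 4. Treated arrays 2 and 3 lay low and the other 6 high. Thumpd1 was at 6.91, 10.68, 6.78 and 6.95 with 4b and at 10.43, 6.56, 10.28 and 10.28 in control arrays, so that 1 array of each group lay at the level of the other group. Tesk1, a protein kinase first described in testis, was at 9.80, 9.79, 9.97 and 10.77 with 4b and at 9.65, 10.58, 7.24 and 7.33 in control arrays. Neither Tomm22 nor Thumpd1 nor Tesk1 had an unadjusted p under 0.05 by limma with all 8 arrays.

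These genes were also measured in wild-type cortex and cerebellum. Tomm22 differed by -2.27 in cortex and -1.95 in cerebellum, Thumpd1 by -1.72 and -2.33 and Tesk1 by 1.28 and 1.64. In transgenic striatum the differences were -0.80 for Tomm22, 1.75 for Thumpd1 and -0.05 for Tesk1. Whether arrays of different regions come from the same animals is not in the labels, and no cause was tested.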
